A study of Homo sapiens with 4 samples.

Results

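The genes described here are 37 protein-coding genes of the distal long arm of chromosome 18 (18q21 to the end of 18q), listed in order from PIGN to PARD6G, out of 27011 genes in the deposited count table. They were selected on their position and on their raised RNA level in Helz-null cells, in the same 4 libraries described here, so that their differences between cell types, and the calls made on them in the fit of all genes, are a description and not a test of the members. All 37 were found in the table, and 25 of them were among the 10978 genes that the authors kept for their comparison by an FPKM filter. RNA-Seq was performed on 2 libraries of wild-type (WT) HEK293T cells and 2 libraries of Helz-null HEK293T cells, labelled as biological replicates. HEK293T is an established human embryonic kidney line that expresses the SV40 large T antigen, and both groups were grown without treatment. The Helz-null line was made from it with Cas9 and a guide RNA against a coding exon of helz, and carries a small frameshift deletion there. HELZ is a putative RNA helicase that binds the CCR4–NOT deadenylase complex. Only 1 edited line was sequenced, so that the loss of HELZ and any other difference between this line and the WT cells cannot be told apart. The files hold RNA counts, and no DNA was measured. In bulk RNA, a change in the number of expressing cells and a change in RNA per cell cannot be told apart either.

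The shallowest library held 41745401 counts and the deepest 70464140. A gene with 3 counts, the floor used here, then had between 0.0421 and 0.0716 CPM, the usual unit of counts scaled to a common library total, here after TMM scaling. HELZ, the edited gene, had 97.7 and 101.7 CPM in WT and 36.2 and 37.1 CPM in Helz-null cells, the direction that the labels give (log2FC -1.44, SE 0.042, adjusted p = 2.13e-27 in the quasi-likelihood fit of edgeR). Replicates differed by more than counting noise, with a chi-square per degree of freedom of 4.15 between the WT and 3.01 between the Helz-null libraries.

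The listed genes share a stretch of chromosome rather than a pathway. PIGN and KDSR act in GPI-anchor and sphingolipid synthesis, CTDP1 and TXNL4A in transcription and splicing, TIMM21 and RBFA in mitochondria, and SALL3, TSHZ1 and ADNP2 are zinc-finger nuclear proteins known from development. Others, such as the myelin gene MBP, the synaptic genes CBLN2 and NETO1 and the lymphocyte receptor gene CD226, are typical of cell types other than kidney cells. In the hg19 (GRCh37) annotation the stretch runs from 59572488, the lower end of PIGN, to 78005397, the upper end of PARD6G, which is 18.4 Mb.

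Every tested member was higher in Helz-null than in WT cells. Of the 25, 24 were called higher at an FDR under 0.005 and 0 lower, where 13.9% of all 10978 tested genes were called higher; the rule used this contrast, so nothing is read from that share. Over all tested genes, calls in the higher direction made up 47.3% of the calls, against 61.7% when counts were scaled by library totals alone. The values of both Helz-null libraries lay above those of both WT libraries for 25 of 25 members and for 34.9% of all tested genes. The median log2FC of the 25 was 0.60, a 1.52-fold increase, with values from 0.15 (TSHZ1) to 1.13 (ADNP2) and an SD of 0.22, whereas the median over all tested genes was -0.00091. Summed over the 37 genes, the level was 835 and 848 CPM in the WT libraries and 1265 CPM in each of the Helz-null libraries. Among the 12 members outside the comparison, MBP was lower in both Helz-null libraries and 3 had 0 counts throughout, so that the label of raised expression does not describe every gene in the list.

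**Figure D1:**
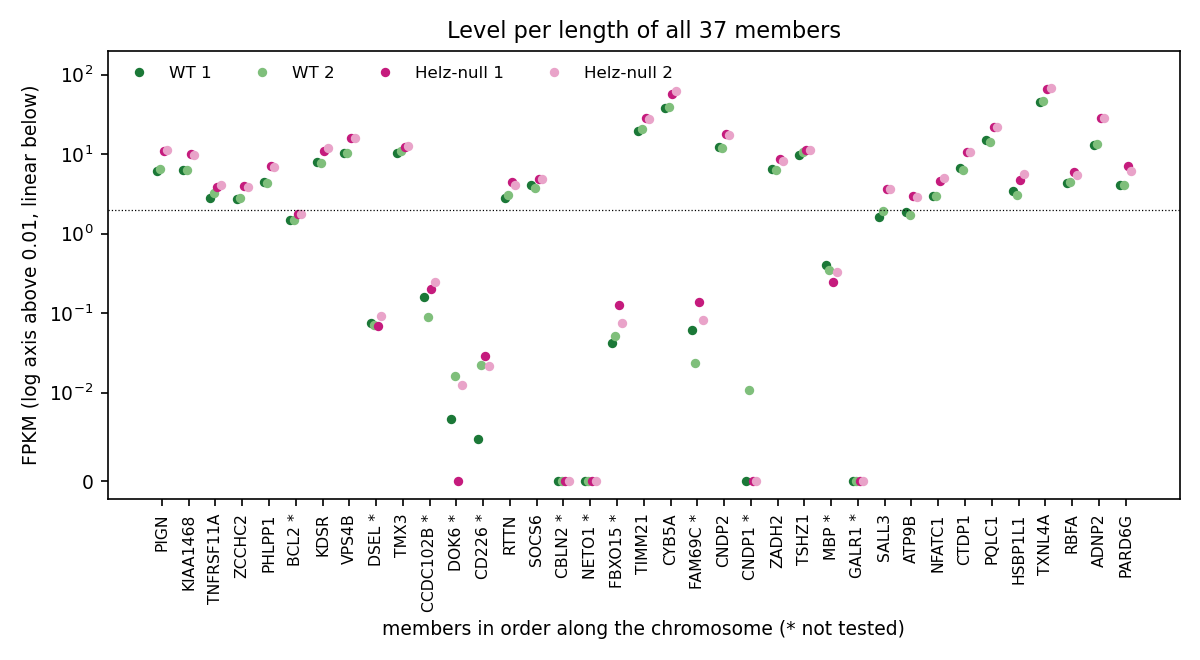
FPKM (CPM divided by gene width in kb, y axis) of the 37 members in the 4 libraries, in order along the chromosome, with an asterisk at genes that were not tested and a dotted line at an FPKM of 2. The Helz-null points (pink) lie above the WT points (green) for each of the 25 tested members, and CBLN2, NETO1 and GALR1 are at 0 in all 4 libraries.

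The shift was seen between any Helz-null and any WT library. For the 4 possible pairs of 1 Helz-null and 1 WT library, the median log2 ratio of the 25 members ranged from 0.58 to 0.62. Over all tested genes it ranged from -0.0017 to -0.00060. The members were selected in these same libraries, so that the pairs describe that selection and are no separate evidence. Between the 2 WT libraries the median was 0.021, with members from -0.16 (HSBP1L1) to 0.26 (SALL3). Between the 2 Helz-null libraries it was -0.0055, with members from -0.21 (PARD6G) to 0.23 (HSBP1L1). HSBP1L1 had the fewest counts of the tested members, 97 to 301 counts per library, and had the highest SE of log2FC (0.16). The other tested members had SEs from 0.035 (ADNP2) to 0.093 (ATP9B).

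In 4 places, listed genes lie head to head on opposite strands, with their outermost annotated starts at most 1 kb apart. The short intervening stretch lies upstream of these outermost starts. Starts further inside a gene were not examined, and TXNL4A spans 63.1 kb as annotated. The intervening sequences are shown because neighbours that share so short a stretch could be compared in level and in shift. The bases are those of the plus strand of hg19 (GRCh37) between the annotated genes, or the last 250 of them before the second gene, with GGGCGG and CCAAT and their reverse complements in capitals.

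PIGN and KIAA1468, chr18:59854352-59854487: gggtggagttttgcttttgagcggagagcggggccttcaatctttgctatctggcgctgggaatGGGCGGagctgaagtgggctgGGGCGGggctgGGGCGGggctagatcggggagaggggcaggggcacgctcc

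TMX3 and CCDC102B, chr18:66382346-66382445: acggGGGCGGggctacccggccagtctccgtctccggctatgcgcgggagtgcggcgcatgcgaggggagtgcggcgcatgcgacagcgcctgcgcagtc

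FBXO15 and TIMM21, chr18:71815508-71815757: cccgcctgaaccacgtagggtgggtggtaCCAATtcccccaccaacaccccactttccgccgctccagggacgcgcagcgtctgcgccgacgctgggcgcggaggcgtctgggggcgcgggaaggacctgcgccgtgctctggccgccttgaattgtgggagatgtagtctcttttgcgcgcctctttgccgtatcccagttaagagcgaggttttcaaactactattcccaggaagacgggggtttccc

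TXNL4A and RBFA, chr18:77794139-77794388: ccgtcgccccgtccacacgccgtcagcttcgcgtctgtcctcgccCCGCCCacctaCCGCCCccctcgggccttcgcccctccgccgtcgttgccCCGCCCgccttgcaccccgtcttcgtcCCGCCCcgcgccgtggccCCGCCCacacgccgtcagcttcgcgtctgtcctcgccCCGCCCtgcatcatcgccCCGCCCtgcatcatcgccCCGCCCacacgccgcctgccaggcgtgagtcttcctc

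PIGN and KIAA1468, 136 bases apart, had nearly the same level per length, with WT FPKM of 6.18 and 6.47 for PIGN and 6.25 and 6.34 for KIAA1468. Both rose, to 11.1 and 11.3 and to 10.1 and 9.78 FPKM. TMX3 and CCDC102B are only 100 bases apart, yet TMX3 had 10.4 and 10.9 FPKM and CCDC102B 0.160 and 0.0899 FPKM in WT cells. The stretch between them is 75% GC and holds 1 GGGCGG. FBXO15 and TIMM21, 679 bases apart, differed likewise, with 0.0421 and 0.0516 FPKM for FBXO15 and 19.4 and 20.8 FPKM for TIMM21 in WT cells. For TXNL4A and RBFA, 439 bases apart, the WT levels were 45.9 and 47.2 FPKM and 4.35 and 4.45 FPKM, and the part shown is 76% GC with 8 matches to GGGCGG on either strand. TXNL4A had the larger log2FC of the pair, 0.54 against 0.37.

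Across the chromosome, the level changed between the last tested gene before the list and the first gene in it. The 5 tested genes before it, from MALT1 at 56.3 Mb to PMAIP1 at 57.6 Mb, had log2FC values from -0.28 to 0.03. PMAIP1, which encodes the pro-apoptotic protein NOXA, was the nearest of them and was lower in Helz-null cells, with 162.9 and 160.7 CPM in WT and 135.7 and 131.9 CPM in Helz-null libraries. LMAN1, a cargo receptor of the early secretory pathway, had a log2FC of -0.14. The first 5 tested genes inside, PIGN, KIAA1468, TNFRSF11A, ZCCHC2 and PHLPP1, had log2FC values of 0.83, 0.66, 0.39, 0.51 and 0.69. Between PMAIP1 and PIGN lie MC4R, CDH20, LINC01544 and RNF152, which were not tested, so that the point of change is not known more closely. On the rest of chromosome 18, the 124 tested genes before PIGN had a median log2FC of 0.0067, with 25 called higher (20.2%) and 14 called lower (11.3%). In 10-Mb bins, medians lay between -0.061 and 0.12 up to 60 Mb, then at 0.55 from 60 to 70 Mb (7 genes) and 0.63 from 70 to 80 Mb (18 genes). The bin from 50 to 60 Mb already held 3 members among its 17 genes, with a log2FC of up to 0.83, which its median does not show. The list was drawn on this difference, and no test was made.

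**Figure D2:**
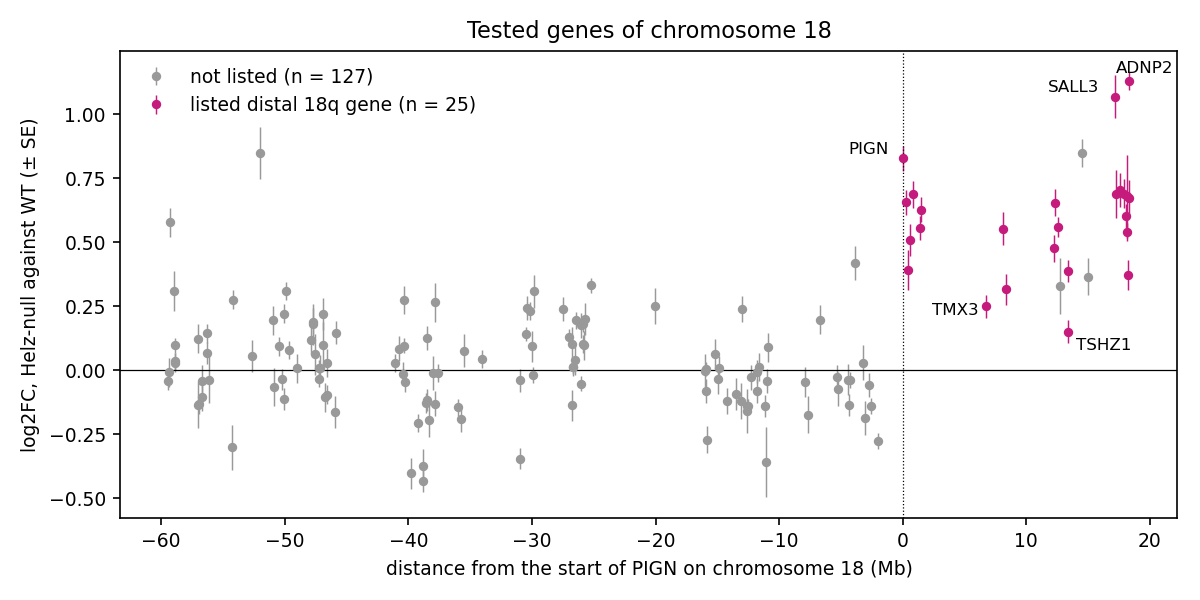
Log2FC of Helz-null against WT cells (y axis, bars show the SE) for the 152 tested genes of chromosome 18 against their distance in Mb from the start of PIGN (x axis, dotted line at 0). The 25 listed genes (pink) lie between 0.15 and 1.13, and the nearest tested genes to the left of the line lie at or below 0.03.

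Within the stretch, the members were set in 3 blocks by position. The 7 tested members between 59 and 62 Mb had a median log2FC of 0.63 (0.39 to 0.83). The 8 between 65 and 75 Mb had a median of 0.43 (0.15 to 0.66), and the 10 between 76 and 79 Mb one of 0.68 (0.37 to 1.13). Consecutive tested members differed by a median of 0.17 (24 pairs), against 0.18 over all 300 pairs of members, which include the consecutive ones. Consecutive tested members can lie far apart, with untested or unlisted genes between them, as VPS4B and TMX3 do. Across the 25 genes, log2FC had a Spearman rho of -0.20 with the WT level (log2 FPKM), -0.15 with gene width, 0.19 with position and 0.26 with the length of the gene span (Pearson's r -0.13, -0.08, 0.20 and 0.14). Without ADNP2, Pearson's r was -0.26, -0.15, 0.10 and 0.21. The 25 points share the same libraries and are given without a test. The 15 members on the plus strand had a median of 0.66 and the 10 on the minus strand one of 0.58.

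Of 7 listed genes for proteins of membranes, lipid synthesis and trafficking, 6 were tested and 6 were called higher (13.9% of all tested genes were), with log2FC values from 0.56 to 0.83. VPS4B, the ATPase that takes apart ESCRT-III filaments, had 34.5 CPM in both WT and 53.3 CPM in both Helz-null libraries. Its log2FC of 0.63 (SE 0.048) was close to the median of the other members. PQLC1, a multipass membrane protein also named SLC66A2, had 37.9 and 36.6 CPM in WT and 56.7 CPM in both Helz-null libraries (log2FC 0.60, SE 0.047), and was the member nearest to the median. KDSR, which makes dihydrosphingosine in sphingolipid synthesis, had 41.0 and 39.8 CPM in WT and 56.8 and 61.8 CPM in Helz-null libraries (log2FC 0.56). ATP9B, a P4-type ATPase, rose from 8.44 and 7.71 CPM to 13.4 and 12.8 CPM (log2FC 0.69). Its FPKM exceeded the filter value of 2 in the Helz-null libraries alone, as that of SALL3 did, so these 2 genes had to differ in order to be tested.

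PIGN, an ethanolamine phosphate transferase of GPI-anchor synthesis, and KIAA1468, an endosomal protein also named RELCH, lie on either side of the first sequence printed above, at the start of the stretch. PIGN had 30.1 and 31.6 CPM in WT and 53.9 and 55.3 CPM in Helz-null libraries, a 1.77-fold difference (log2FC 0.83, SE 0.050), which placed it 0.25 above the median of the other members. KIAA1468 had 34.1 and 34.6 CPM in WT and 55.0 and 53.3 CPM in Helz-null libraries (log2FC 0.66, SE 0.049). For both genes the groups were far apart relative to their replicates.

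Among the genes for survival, receptor and signalling proteins, 4 of 8 were tested and 4 were called higher (against 13.9% of all tested genes), with a median log2FC of 0.54. NFATC1, a calcineurin-dependent transcription factor, had 16.6 and 16.8 CPM in WT and 26.1 and 28.2 CPM in Helz-null cells (log2FC 0.70, SE 0.067). PHLPP1, a phosphatase that acts on Akt, had 28.4 and 27.5 CPM in WT and 45.5 and 44.9 CPM in Helz-null cells (log2FC 0.69). TNFRSF11A, the receptor RANK, and SOCS6, a member of the suppressors of cytokine signalling, shifted less. TNFRSF11A had 13.1 and 14.9 CPM in WT and 17.7 and 18.7 CPM in Helz-null libraries (log2FC 0.39, SE 0.079), and without WT replicate 1 it was no longer called. SOCS6 had 23.8 and 22.1 CPM in WT and 28.9 and 28.4 CPM in Helz-null libraries (log2FC 0.32, SE 0.062). Against a minimum fold of 1.2 in edgeR's glmTreat, TNFRSF11A and SOCS6 were not called.

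The 4 tested genes for enzymes and redox proteins and the 2 for mitochondrial proteins were all called higher, beside 13.9% of all tested genes, with medians of 0.47 and 0.42. In the same glmTreat fit, TMX3, ZADH2 and RBFA were not called. CYB5A, the microsomal cytochrome b5, had 32.6 and 33.4 CPM in WT and 49.5 and 54.0 CPM in Helz-null libraries (log2FC 0.66). CNDP2, a cytosolic dipeptidase, had 65.2 and 63.6 CPM in WT and 96.6 and 93.7 CPM in Helz-null libraries (log2FC 0.56, SE 0.038). ZADH2, a prostaglandin reductase also named PTGR3, was less shifted, from 52.3 and 51.6 CPM to 69.9 and 66.3 CPM (log2FC 0.39). TMX3, a disulfide isomerase of the endoplasmic reticulum, had 49.2 and 51.6 CPM in WT and 58.7 and 60.8 CPM in Helz-null libraries, a 1.19-fold difference (log2FC 0.25, SE 0.045). It lay 0.37 below the median of the other members. TIMM21, which belongs to the import machinery of the inner mitochondrial membrane, had 29.8 and 31.8 CPM in WT and 43.2 and 42.3 CPM in Helz-null libraries (log2FC 0.48). RBFA, a factor for maturation of the small mitochondrial ribosomal subunit, had 24.7 and 25.3 CPM in WT and 33.6 and 31.2 CPM in Helz-null libraries (log2FC 0.37, SE 0.059). Its annotated exons share 606 bases with RBFADN on the same strand, which had 1 to 4 counts.

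The genes for nuclear and RNA proteins spanned the whole range of the list. Of 6 tested, 5 were called higher, where 13.9% of all tested genes were, and their log2FC values ran from 0.15 to 1.13. SALL3, among the 5, passed the FPKM filter only through the Helz-null libraries. CTDP1, the phosphatase of the C-terminal domain of RNA polymerase II, had 25.9 and 24.6 CPM in WT and 41.1 and 40.6 CPM in Helz-null libraries (log2FC 0.69, SE 0.055). TXNL4A, a protein of the U5 snRNP, was the most abundant member in WT cells, with 83.1 and 85.4 CPM against 121.0 and 123.7 CPM in Helz-null libraries (log2FC 0.54). It overlaps HSBP1L1 on the opposite strand by 10 exonic bases. ZCCHC2, a zinc-finger protein gene, had 21.2 and 22.2 CPM in WT and 31.1 and 30.5 CPM in Helz-null libraries (log2FC 0.51).

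ADNP2 was the member furthest above the common shift with all 4 libraries, and SALL3 was when WT replicate 2 was left out (log2FC 1.19 against 1.15 for ADNP2). It encodes a homeobox and zinc-finger protein related to ADNP and lies from 77867146 to 77905406 on the plus strand. ADNP2 had 69.96 and 71.6 CPM in WT and 155.2 and 154.6 CPM in Helz-null libraries, which is 70.8 ± 1.17 against 154.9 ± 0.416 (SD, n = 2 each). The 2.19-fold difference (log2FC 1.13, SE 0.035) exceeded the median of the other members by 0.55. Its log2 ratio was between 1.11 and 1.15 in the 4 pairs of libraries, and ADNP2 and SALL3 held the 2 highest ratios of the 25 in each pair. Its neighbours did not share this height: RBFA, which ends before ADNP2 begins, had a log2FC of 0.37, and PARD6G, the next listed gene, had one of 0.67. PARD6G, a gene of the PAR6 polarity complex, had 15.8 and 15.5 CPM in WT and 26.9 and 23.3 CPM in Helz-null libraries.

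SALL3, a spalt-like zinc-finger transcription factor gene, was the other member more than 0.3 above the median of the rest. It had 8.90 and 10.6 CPM in WT and 20.2 and 20.4 CPM in Helz-null libraries (log2FC 1.07, SE 0.084), which is 0.49 above that median. The excess varied with the WT library. Against WT replicate 1 the log2 ratio of SALL3 was 1.18 and 1.19, and against WT replicate 2 it was 0.93 and 0.94. In its level per length SALL3 was low, with FPKM values of 1.60 and 1.92 in WT and 3.64 and 3.67 in Helz-null libraries.

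TSHZ1 and TMX3 were the members more than 0.3 below the median of the others. TSHZ1, a teashirt-type zinc-finger gene, had 52.1 and 57.1 CPM in WT and 60.2 and 60.6 CPM in Helz-null libraries. The groups did not overlap, but the difference was 1.11-fold (log2FC 0.15, SE 0.046), and TSHZ1 was the only one of the 25 that was not called. Its ratio to WT replicate 1 was 0.21 and 0.22 on the log2 scale and to WT replicate 2 was 0.077 and 0.086, beside a difference of 0.13 between the 2 WT libraries. TSHZ1 was called when WT replicate 2 was left out, with the replicate number as a block, with library totals as the only scaling, after thinning to equal depth and at an FDR of 0.05, and its log2FC was 0.082 when WT replicate 1 was left out. ZADH2, which starts within 2 kb of TSHZ1 on the opposite strand, had a log2FC of 0.39. In all, 13 of the 25 members lay within 2 SE of the median of the others and 12 did not, and 16 lay within 0.2 of it.

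**Figure D3:**
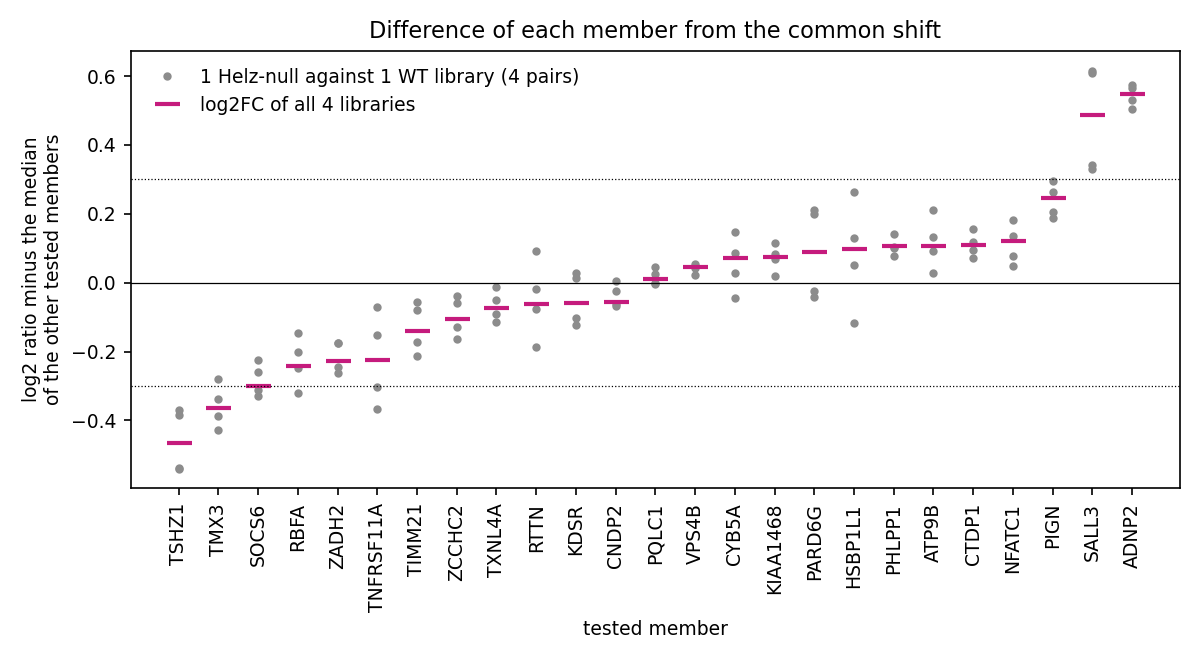
Difference of each tested member from the median of the other 24 (y axis, log2 ratio of Helz-null to WT), ordered by the value from all 4 libraries (pink dashes), with the 4 pairs of single libraries as grey points and dotted lines at 0.3 and -0.3. All 4 points of ADNP2 and SALL3 lie above 0.3, and those of TSHZ1 lie below -0.3.

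The remaining tested members had log2FC values near the median. RTTN, a centriole protein gene, had 19.9 and 21.7 CPM in WT and 31.6 and 29.5 CPM in Helz-null libraries (log2FC 0.55). HSBP1L1, which resembles the heat shock factor binding protein gene HSBP1, had 2.59 and 2.32 CPM in WT and 3.60 and 4.22 CPM in Helz-null libraries (log2FC 0.68), and was not called by DESeq2, by glmTreat, without WT replicate 2 or without Helz-null replicate 2.

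The 12 members outside the comparison were absent or had a low level per length in these cells, with an FPKM of at most 1.79 (BCL2). CBLN2, NETO1 and GALR1, genes for a synaptic organizer, a glutamate receptor accessory protein and a galanin receptor, had 0 counts in all 4 libraries, which allows up to 0.0421 to 0.0716 CPM depending on the library. CNDP1, the secreted carnosinase gene, had 1 count in WT replicate 2 and 0 elsewhere. DOK6, an adaptor gene of RET signalling, had 4 and 6 counts in WT and 0 and 8 in Helz-null libraries. CD226, which overlaps it on the opposite strand, had 1 and 3 counts in WT and 4 and 5 in Helz-null libraries. The other low genes were FBXO15, an F-box protein gene, with 5 and 4 against 10 and 10 counts, and FAM69C, with 8 and 2 against 12 and 12 counts. Both Helz-null libraries lay above both WT libraries in CPM for FBXO15 and FAM69C, at counts too low for a direction to be given.

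BCL2, DSEL, MBP and CCDC102B had more counts than the others, and 0 of these 4 were called. BCL2, the anti-apoptotic gene, had 9.71 CPM in both WT libraries and 11.5 and 11.8 CPM in the Helz-null libraries. Its FPKM of 1.47 to 1.79 kept it out of the comparison. In a fit of all 20904 genes with at least 1 count its log2FC was 0.27 (SE 0.090). DSEL, related to the dermatan sulfate epimerase, had 0.701 and 0.668 CPM in WT and 0.639 and 0.856 CPM in Helz-null libraries, and the groups overlapped. MBP, the myelin basic protein gene, was lower in both Helz-null libraries, with 1.70 and 2.29 CPM against 2.82 and 2.39 CPM in WT (log2FC -0.37, SE 0.17). CCDC102B, a centrosome protein gene, had 30 and 11 counts in WT and 25 and 52 in Helz-null libraries, which is 0.467 and 0.263 against 0.592 and 0.730 CPM. Its groups did not overlap, and its log2FC of 0.81 had an SE of 0.39. Of the 9 untested members with at least 1 count, 0 were called in this edgeR fit, in which 8.49% of all genes were called higher, and 3 (BCL2, CCDC102B and MBP) had an unadjusted p under 0.05, as did 34.2% of all genes. With the filterByExpr filter of edgeR, 4 of the 9 were kept and 0 were called (9.83% of all genes were called higher). Of these 4, 2 had an unadjusted p under 0.05, as did 42.9% of all genes in that fit.

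The stretch also holds 31 genes of the count table that are not in the list. Of these, 17 had 0 counts in every library, among them SERPINB3, SERPINB4, SERPINB5 and others of the SERPINB protease inhibitor cluster, and 3 were tested. ZNF516, a zinc-finger gene, had 23.8 and 24.5 CPM in WT and 44.2 and 42.8 CPM in Helz-null libraries (log2FC 0.85, SE 0.055), a value that was exceeded in the list only by ADNP2 and SALL3. ZNF236, another zinc-finger gene, had 16.0 and 18.1 against 21.7 and 21.9 CPM (log2FC 0.37, SE 0.072). LINC00909, a noncoding RNA gene, had 6.23 and 7.23 against 8.21 and 8.52 CPM (log2FC 0.33, SE 0.11) and was not called. ZNF407, outside the comparison, had 11.8 and 12.5 CPM in WT and 15.9 and 15.3 CPM in Helz-null libraries. SERPINB8, also outside it, had 18 and 12 counts in WT and 2 and 9 in Helz-null libraries. Both Helz-null libraries lay below both WT libraries in CPM, at counts too low for a direction to be given. Of the 3 tested unlisted genes, 2 were called higher, against 13.9% of all tested genes.

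RefSeq promoters (GRCh38.p14, 250 bases before to 50 after the start) were found for 33 of the 37 members, all but DOK6, TSHZ1, PQLC1 and ADNP2. Among the 22 tested members with a promoter, 19 (86.4%) held GGGCGG on either strand, against 44.6% of 27305 promoters of all genes, which include genes without counts in these cells. CCAAT was found in 8 of the 22 (36.4% against 35.7%). TATAAA was found in 1 of the 22, that of SALL3 (4.55% against 12%), CACGTG in 1, that of CNDP2 (4.55% against 7.43%), and TGACTCA in 0 (against 4.92%). CpG dinucleotides numbered 22 to 59 per promoter, with a median of 37, in the tested members, a median of 31 in the 11 untested ones and a median of 14 in all genes. These matches describe the sequences and say nothing about which factors bind there.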

How the data were processed

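RNA-Seq was available for 4 libraries, 2 of WT and 2 of Helz-null HEK293T cells, grouped by their titles. Reads of ribosomal RNA were filtered out by the authors (Bowtie2), and the remaining pairs were mapped with TopHat2 to hg19. The deposited values are unnormalized read counts per gene from QuasR. Another column of the deposited table is the gene width in bases, used for FPKM here. Versions, annotation and use of strand are not given in the sources used here, so overlapping genes are uncertain. A deposited comparison table of fold changes and p-values, computed by the authors with edgeR, was used only for its 10978 gene names, which are the genes they kept by FPKM.

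Counts were scaled by TMM (factors 0.987 to 1.01) and tested over the 10978 genes with edgeR 4.0.16 in R 4.3.3 (glmQLFit and glmQLFTest, genotype as the only term, FDR under 0.005). The SE is the log2FC over the square root of F. Counts of genes called rest on this fit, and for the members the calls are a description, since they were chosen on this contrast. CPM and FPKM per library use the TMM-scaled totals, in which tested genes hold 97.8% of the counts. The floors cover counting error only, whereas the SE also includes the variation between replicates that the fit estimated. Positions came from GENCODE on GRCh37 by symbol (22419 genes) or through a RefSeq synonym (1226 genes), and 3366 genes were not matched. The fit was tested on simulated data. DESeq2 1.42.0 and other scalings, filters, a replicate block, thinned libraries and single libraries left out were alternatives. Figures were drawn with matplotlib 3.10.9. The members and gene groups were chosen with earlier results of these data known. Genes described in full were ADNP2, the 4 others furthest above and the 4 furthest below the median of the other members, and those nearest to it; the rest of the list, the border genes and the unlisted tested genes are given by value.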

Additional observations from a re-analysis of the deposited data

How the results depend on the processing

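Against the 24 members called higher, 23 to 25 were called under DESeq2, RLE or total-count scaling, TMM factors without the members, both other gene filters, thinning and an FDR of 0.05. The share of all genes called higher in those fits ran from 8.49%, with all genes of at least 1 count, to 21.6% at an FDR of 0.05. It was 10% under DESeq2 and 19.3% with total-count scaling. TSHZ1 was called with total-count scaling, thinning, the replicate block, an FDR of 0.05 and without WT replicate 2. HSBP1L1 was not called by DESeq2, without WT replicate 2 or without Helz-null replicate 2, and TNFRSF11A was not called without WT replicate 1. With glmTreat and a minimum fold of 1.2, 18 were called, without TNFRSF11A, TMX3, SOCS6, ZADH2, HSBP1L1 and RBFA. Leaving out 4 members that overlap another gene left 20 of 21 called. Over all tested genes, 1524 were called higher, against 217 with glmTreat and 2371 at an FDR of 0.05. The median log2FC, 0.60, was 0.64 with total-count scaling and 0.59 to 0.63 with single libraries left out. The SD among members, 0.222, was 0.217 after thinning, 0.237 without the overlapping members and 0.224 to 0.228 with single libraries left out. The excess of ADNP2 stayed between 0.51 and 0.55 with single libraries left out. ADNP2 and SALL3 were the 2 members more than 0.3 above the others in every alternative. TMX3 and TSHZ1 were below -0.3 in each, joined by TNFRSF11A without WT replicate 1 and by SOCS6 without WT replicate 2 or Helz-null replicate 1. Without WT replicate 1 the log2FC of TSHZ1 was 0.082. The labels number the replicates but state no shared batch, and same-numbered deviations had a correlation of 0.037 over all tested genes. With the replicate number as a block, 25 members were called, where 15.3% of all tested genes were called higher, and the median log2FC was 0.61. With 2 libraries in a group, 1 deviating library cannot be picked out, and HSBP1L1 is limited by its 97 to 301 counts.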
